A study of Mus musculus with 2 samples.

Results

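Leukotrienes and prostaglandins are made by a small set of enzymes, and the RNA of 9 of their genes was followed here across the cells of the mouse lung. These were Alox5 (ENSMUSG00000025701), Alox5ap (ENSMUSG00000060063), Ltc4s (ENSMUSG00000020377), Lta4h (ENSMUSG00000015889), Ptgs1 (ENSMUSG00000047250), Ptgs2 (ENSMUSG00000032487), Ptges (ENSMUSG00000050737), Hpgds (ENSMUSG00000029919) and Ptgis (ENSMUSG00000017969). The genes were chosen by name for their place in the pathway, and all 9 were present among the 33696 genes counted. Live cells were sorted from dissociated lungs of adult mice on the C57BL6/J background. Their RNA was counted with the 10x Genomics Single Cell 3' assay, in which each unique molecular identifier (UMI) stands for 1 captured RNA molecule. 1 library was labelled GFI1 KO, a germline loss of the transcription factor GFI1, and 1 was labelled GFI1 WT, with no treatment named for either. The study's methods describe duplicates for its single-cell samples, and 1 library per label was analysed here. With 1 library per genotype there was no replicate, no test was possible, and genotype, mouse and library cannot be told apart.

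Both arms of the pathway start from arachidonic acid, which phospholipases free from membranes. In the leukotriene arm, ALOX5 works with the membrane protein ALOX5AP (FLAP), which presents the substrate, to make leukotriene A4, and LTC4S and LTA4H then turn this product into leukotriene C4 or leukotriene B4. In the prostanoid arm, PTGS1 and PTGS2 (cyclooxygenases) make prostaglandin H2, from which PTGES makes prostaglandin E2, HPGDS makes prostaglandin D2 and PTGIS makes prostacyclin. Leukotriene B4 draws neutrophils, the cysteinyl leukotrienes constrict airways, and prostacyclin relaxes vessels.

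After filtering, 10495 cells of the KO-labelled library and 19342 of the WT-labelled library were kept, with a median of 11076 and 6217 UMIs per cell, and 74 cell barcodes occurred in both. The cells fell into 36 clusters, which were named after marker genes with the 9 genes left out of the clustering. Class sizes were far apart, since classical monocyte-like cells made up 29.6% of the KO-labelled and 0.346% of the WT-labelled cells, whereas neutrophil-like cells numbered 8 and 1431 and endothelial-like cells 108 and 2205. A cluster led by Aif1, with markers of classical monocytes, nonclassical monocytes and interstitial macrophages (1700 and 352 cells), stayed unnamed. So did a cluster led by Bpifa1 (151 and 131 cells), with 8 of 9 epithelial markers raised and Scgb1a1, Sftpa1 and Sftpc among its leading genes. Epithelium was otherwise held by 3 and 15 ciliated-type epithelial-like cells, too few for a level. Gfi1 RNA stood at 3.60 CPM (95% interval 3.23 to 4.0, 340 UMIs) in the KO-labelled library and at 3.47 CPM (3.16 to 3.80, 470 UMIs) in the WT-labelled one. This 3' assay gives no count by exon, so the level does not check the labels.

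A level is given below as CPM, the UMIs of a gene per 1000000 UMIs of its cell class, with an exact Poisson 95% interval in brackets or after the value. Intervals cover counting error only and leave out differences between mice. Those of levels and of ratios take each UMI as independent, so they are too narrow where few cells hold many of the UMIs. In the sum over all cells of a library, Alox5ap stood at 1140 CPM in the KO-labelled and 376 CPM in the WT-labelled library, and Ptgs1 at 4.34 and 15.4 CPM. The libraries also differed in the cells they held, and the part of this in the sums was not tested.

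The sequence upstream of the transcription start was available for 7 of the 9 genes from the RefSeq promoter table (build GRCm38.p6, whereas the counts were made on GRCm39), and not for Alox5ap and Ptgis. The stretch of 250 bases before the start is printed for Alox5 and Ltc4s, the leukotriene genes with the most uneven levels among macrophages and monocytes, and for Ptgs2, whose level ran from 1.95 to 2330 CPM over the class and library pairs with at least 50 cells. They lie at chr6:116461179-116461428 (minus strand), chr11:50238533-50238782 (minus strand) and chr1:150099781-150100030 (plus strand), and each is written 5′ to 3′ in the direction of the gene, with GAGGAA or its reverse complement TTCCTC in capitals.
Alox5: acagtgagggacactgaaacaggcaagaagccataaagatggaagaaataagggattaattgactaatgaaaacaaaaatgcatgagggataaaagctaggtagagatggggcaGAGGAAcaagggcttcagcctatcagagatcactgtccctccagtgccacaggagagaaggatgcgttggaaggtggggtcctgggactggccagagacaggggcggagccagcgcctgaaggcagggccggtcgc
Ltc4s: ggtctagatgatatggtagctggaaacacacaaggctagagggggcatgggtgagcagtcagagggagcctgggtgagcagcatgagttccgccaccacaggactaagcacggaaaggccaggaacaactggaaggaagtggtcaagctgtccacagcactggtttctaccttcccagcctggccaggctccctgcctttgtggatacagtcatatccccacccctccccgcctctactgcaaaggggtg
Ptgs2: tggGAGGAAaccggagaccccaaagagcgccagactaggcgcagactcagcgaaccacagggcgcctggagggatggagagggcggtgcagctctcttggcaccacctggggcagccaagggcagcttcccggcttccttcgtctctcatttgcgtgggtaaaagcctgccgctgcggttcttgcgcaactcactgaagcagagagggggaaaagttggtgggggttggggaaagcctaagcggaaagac
GAGGAA is of the purine-rich kind of stretch that ETS-family factors can recognise. On either strand it occurred in 6 of the 7 promoters, against 23.3% of all 32851 promoters of the same length. The Ltc4s promoter lacked GAGGAA but holds another purine-rich stretch, ggaaggaag. The lack of GAGGAA there therefore does not show a lack of stretches that ETS-family factors can recognise. AATC, the core of the sequence GFI1 is known to bind, or its reverse complement GATT occurred in 3 of 7 (Alox5, Lta4h and Hpgds) against 69.0% of all promoters. GGGCGG, a GC box, or its reverse complement CCGCCC occurred in 3 of 7 (Alox5, Ptgs2 and Ptges) against 32.7% of all promoters. The letters were chosen after these promoters had been read, and a match is no evidence of binding.

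Alveolar macrophage-like cells carried RNA of each of the 4 leukotriene genes in both libraries. Alox5, the lipoxygenase itself, stood at 195 CPM (190 to 201, 5117 UMIs) in the KO-labelled and at 178 CPM (175 to 182, 7942 UMIs) in the WT-labelled library. Alox5ap stood at 632 and 599 CPM there, and Ltc4s, the leukotriene C4 synthase, at 523 CPM (514 to 532) and 439 CPM (433 to 445). Lta4h, the leukotriene A4 hydrolase, stood at 127 and 125 CPM. Thus the 4 genes lay within a ratio of 1.02 to 1.19 between the libraries. The class showed its defining markers, with all 9 alveolar macrophage markers of the list detected and a summed level of 7430 and 7230 CPM.

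The monocyte classes carried Alox5ap with little Alox5 or Ltc4s. The classical monocyte-like cluster showed all 7 markers of its list, but its 10 leading genes included Prtn3, Lcn2, Fcnb, Lrg1 and Abca13, which are known from granulocyte precursors and neutrophils, beside the monocyte genes Vcan and F13a1. Its granule-gene myeloid markers summed to 317 CPM in the KO-labelled and 41.0 CPM in the WT-labelled library. In classical monocyte-like cells Alox5ap stood at 1810 CPM (1790 to 1820) in the KO-labelled and 1440 CPM (1330 to 1560) in the WT-labelled library, whereas Alox5 stood at 3.56 CPM (113 UMIs) and 8.64 CPM (4 UMIs) and Ltc4s at 3.56 CPM (113 UMIs) and 2.16 CPM (1 UMI). The Aif1-led cluster had the same pattern, with Alox5ap at 1550 and 1070 CPM and Alox5 at 2.75 and 8.37 CPM. In nonclassical monocyte-like cells, the patrolling kind, Alox5ap stood at 797 and 633 CPM, Alox5 at 19.9 CPM (14.3 to 27.0) and 46.2 CPM (37.1 to 56.8), and Lta4h at 155 CPM (139 to 173) and 149 CPM (133 to 168). Each of these Alox5 levels lay below that of alveolar macrophage-like cells of the same library, with intervals that did not overlap.

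Neutrophil-like cells, which could be described in the WT-labelled library only, carried Alox5 at 119 CPM (109 to 130), Alox5ap at 1130 CPM (1100 to 1160), and Lta4h at 14.1 CPM (10.8 to 18.2). This was the lowest Lta4h level among the classes with 50 or more cells in a library, with an interval that overlapped that of the WT-labelled Bpifa1-led cluster (16.4 CPM, 10.9 to 23.7). The 8 neutrophil-like cells of the KO-labelled library held 9 UMIs of Alox5 and 208 of Alox5ap, too few cells for a comparison. In the WT-labelled library interstitial macrophage-like cells carried Alox5 at 108 CPM (99.3 to 117) and Ltc4s at 197 CPM (185 to 209). The 9 alveolar macrophage markers summed to 5560 CPM in these cells against 7230 CPM in alveolar macrophage-like cells, and their part in these levels was not tested. Cells resembling type 2 innate lymphoid cells (ILC2-like, 153 cells of the WT-labelled library) carried Alox5 at 85.7 CPM (66.7 to 108) and Lta4h at 80.7 CPM (62.3 to 103), beside a neutrophil marker sum of 1760 CPM and an alveolar macrophage marker sum of 753 CPM whose part was not tested.

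**Figure D1:**
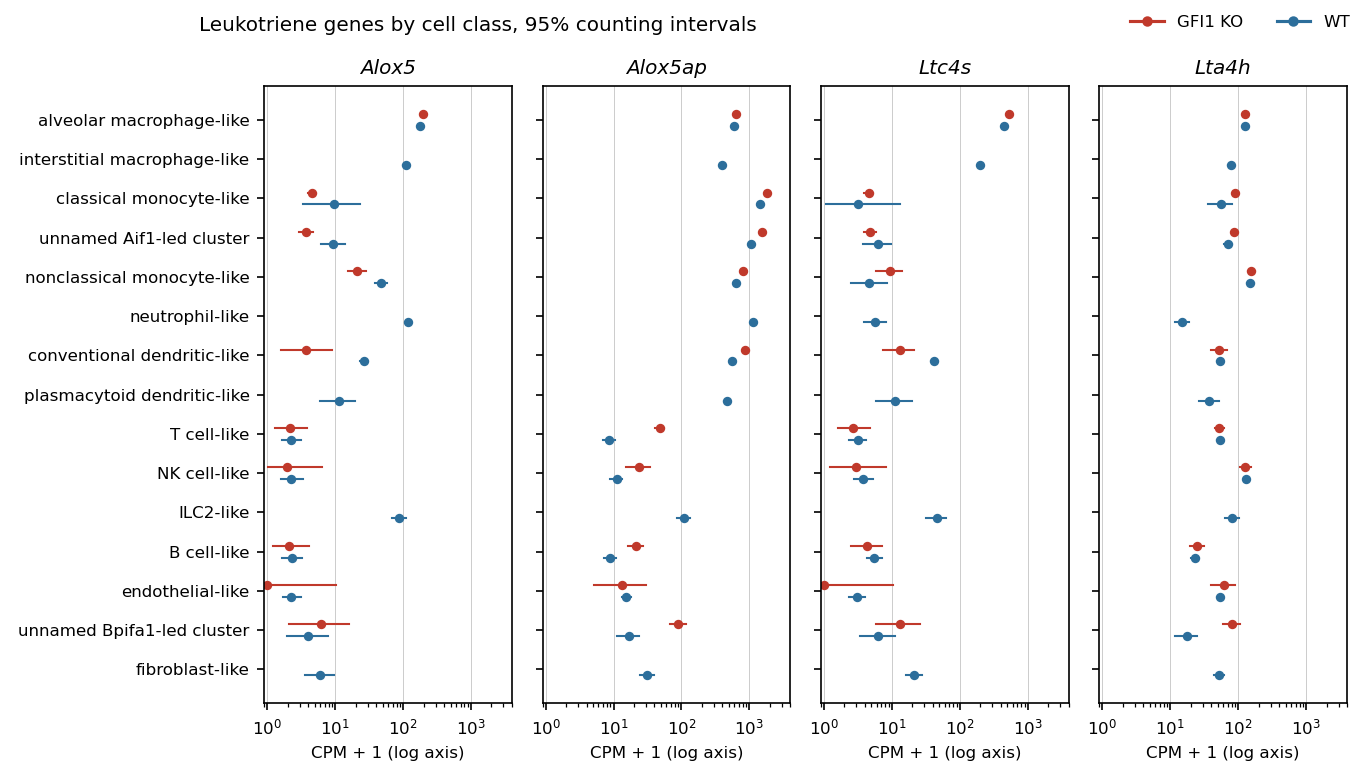
Level of the 4 leukotriene genes in each cell class (CPM + 1, log axis), 1 point per library with its exact Poisson 95% interval, red for GFI1 KO and blue for WT. Alox5ap was carried by all myeloid classes, whereas Ltc4s stood at 439 and 523 CPM in alveolar macrophage-like cells, at 197 CPM in interstitial macrophage-like cells and at 44.7 CPM or less in the rest.

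In lymphocytes Alox5 and Ltc4s stood at a few CPM, whereas Lta4h was well detected. B cell-like, NK cell-like and T cell-like cells held Alox5 at 0.979 to 1.29 CPM and Ltc4s at 1.71 to 4.51 CPM in both libraries. Lta4h, which also acts as an aminopeptidase, stood at 127 CPM (106 to 151) and 131 CPM (123 to 139) in NK cell-like cells, at 51.7 and 52.9 CPM in T cell-like cells and at 23.7 and 22.2 CPM in B cell-like cells. The order NK, T, B was the same in both libraries, with intervals that did not overlap between neighbours. In endothelial-like cells Lta4h stood at 60.1 CPM (24 UMIs) and 52.1 CPM (584 UMIs), overlapping with the level of T cell-like cells.

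Cells in which Alox5 and Alox5ap were detected together were counted after each cell had been thinned to 1500 UMIs, since depth differed between classes. In alveolar macrophage-like cells Alox5 was found in 24.5% and 22.2% of cells and Alox5ap in 61.4% and 58.5%. Both were held by 15% (exact binomial 95% interval 13.6 to 16.6) of the KO-labelled and 13% (11.9 to 14.1) of the WT-labelled cells. The share was 11.5% in neutrophil-like and 7.21% in interstitial macrophage-like cells of the WT-labelled library. In classical monocyte-like cells Alox5ap was found in 92.6% and 91.0% of cells and Alox5 in 0.483% and 4.48%. Both genes were found in 0.451% of KO-labelled cells and in 3 of 67 WT-labelled cells. Of the 15 KO-labelled cells with Alox5, 14 also held Alox5ap, so the low share with both followed the low share with Alox5. For nonclassical monocyte-like cells the share with both was 2.19% and 3.43%. Alox5ap and Ltc4s were found together in 32.9% (31.0 to 34.9) and 28.0% (26.6 to 29.5) of alveolar macrophage-like cells and in 0.322% of KO-labelled classical monocyte-like cells. In endothelial-like cells, taken here to lack Alox5, it was found at the same depth in 0 of 97 KO-labelled cells (3 cells, the limit for a count of 0, would be 3.09%) and in 0.188% of WT-labelled cells, and Alox5ap in 3.09% and 1.55%. In B cell-like cells Alox5 was found in 0.231% and 0.149% and Alox5ap in 2.55% and 1.12%. Without thinning, Alox5 was found in 82.1% and 81.5% of alveolar macrophage-like cells and in 0 of 108 and 0.590% of endothelial-like cells, at a median of 13149 and 13596 against 3707 and 4998 UMIs per cell.

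**Figure D2:**
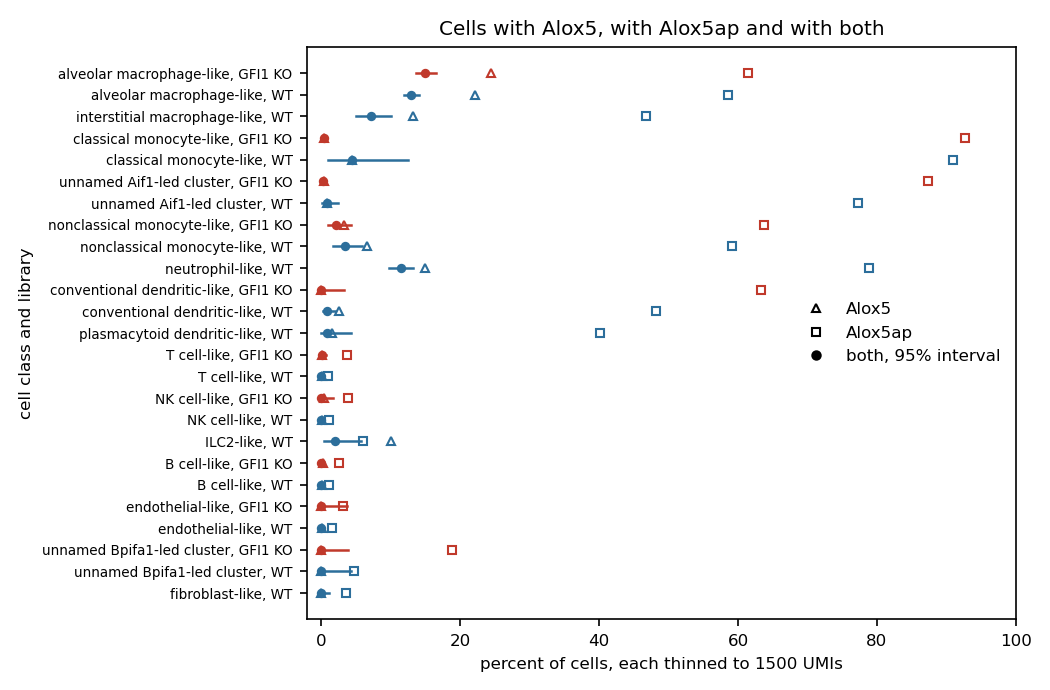
Percent of cells with Alox5 (triangles), Alox5ap (squares) and both (filled points with exact binomial 95% intervals), each cell thinned to 1500 UMIs, red for GFI1 KO and blue for WT. Both genes were found in 15% and 13% of alveolar macrophage-like cells. Classical monocyte-like cells held Alox5ap in 92.6% and 91.0% of cells, Alox5 in 0.483% and 4.48%, and both in 0.451% and 4.48%.

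In the prostanoid arm, Ptgs2, the inducible cyclooxygenase, was carried mainly by neutrophils and monocytes. Neutrophil-like cells of the WT-labelled library held 9906 UMIs of Ptgs2, 2330 CPM (2280 to 2380), spread over 1308 of 1431 cells. In classical monocyte-like cells its level was 315 CPM (308 to 321) in the KO-labelled and 525 CPM (461 to 595) in the WT-labelled library, and in the Aif1-led cluster it was 244 and 347 CPM. Alveolar macrophage-like cells stood at 1.95 CPM (51 UMIs) and 4.27 CPM (190 UMIs), levels as low as the 3.95 and 3.0 CPM of B cell-like cells. The KO-labelled library thus had most of its Ptgs2 UMIs in classical monocyte-like cells (9970 of 15284), and the WT-labelled library in neutrophil-like cells (9906 of 16878).

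Dendritic cells were split by Ptgs2. The conventional dendritic-like cluster led by Ccl22 and Fscn1, genes of mature migrating cells, carried it at 232 CPM (192 to 278) and 257 CPM (241 to 273), whereas the cluster led by Xcr1 stood at 19.4 CPM (9.71 to 34.8) and 14.4 CPM (10.3 to 19.5). Hpgds, the hematopoietic prostaglandin D synthase, ran the other way, at 13.5 and 6.64 CPM in the former and 35.4 and 27.3 CPM in the Xcr1-led cluster. The leading genes of the Ccl22-led cluster also included Cd209a and Mgl2, and 4 of 8 interstitial macrophage markers were raised in it. Whether its mature cells carried the Ptgs2 was not tested. Fibroblast-like cells of the WT-labelled library carried Ptgs2 at 98.2 CPM (86.1 to 112), with 129 of 236 UMIs in 8 of 359 cells. ILC2-like cells of that library stood at 95.7 CPM (75.5 to 120), but all 77 UMIs came from 5 of 153 cells and 29 from 1 cell. Of the cells of the ILC2-like cluster 11.7% were called doublets, and the part of other cells in this level was not tested.

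Ptgs1, the constitutive cyclooxygenase, was carried by endothelial-like cells at 27.5 CPM (13.8 to 49.3, 11 UMIs) in the KO-labelled and at 86.6 CPM (81.2 to 92.2, 971 UMIs) in the WT-labelled library. Within the endothelium of the WT-labelled library the general capillary cluster stood at 97.4 CPM (91.3 to 104) and the cluster with aerocyte markers at 22.3 CPM (15.6 to 30.9). Ptgs2 was ordered the other way, at 8.96 CPM (7.17 to 11.1) and 60.8 CPM (49.4 to 74.1). However, 107 of the 184 Ptgs2 UMIs of these endothelial-like cells came from 8 of 2205 cells. Doublet calls made up 0.620% of the general capillary cluster and 8.80% of the cluster with aerocyte markers, and their part was not tested. Interstitial macrophage-like cells of that library held Ptgs1 at 43.5 CPM (38.1 to 49.6) and fibroblast-like cells at 32.0 CPM (25.3 to 40.0), with overlapping intervals. Alveolar macrophage-like cells stood at 3.28 and 5.24 CPM.

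The terminal synthases marked other cells. Ptgis, the prostacyclin synthase, stood at 271 CPM (251 to 293) in fibroblast-like cells of the WT-labelled library, at 15.1 CPM (12.9 to 17.5) in its endothelial-like cells and at 5.89 CPM or less in its other classes. In the KO-labelled library 22 fibroblast-like cells held 35 Ptgis UMIs and 108 endothelial-like cells held 3. Ptges, the inducible prostaglandin E synthase, stood at 33.0 CPM (30.8 to 35.3) and 38.1 CPM (36.3 to 39.9) in alveolar macrophage-like cells, at 45.3 CPM (37.2 to 54.7) in fibroblast-like cells of the WT-labelled library, and at 13.1 CPM (11.9 to 14.4) in KO-labelled classical monocyte-like cells. In alveolar macrophage-like cells Ptges was thus found where Ptgs2 was low. Hpgds stood at 33.8 CPM (29.1 to 39.2) in interstitial macrophage-like cells of the WT-labelled library, at 15.6 CPM (13.1 to 18.3) in its B cell-like cells and at 10.5 CPM (9.56 to 11.5) in its alveolar macrophage-like cells.

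**Figure D3:**
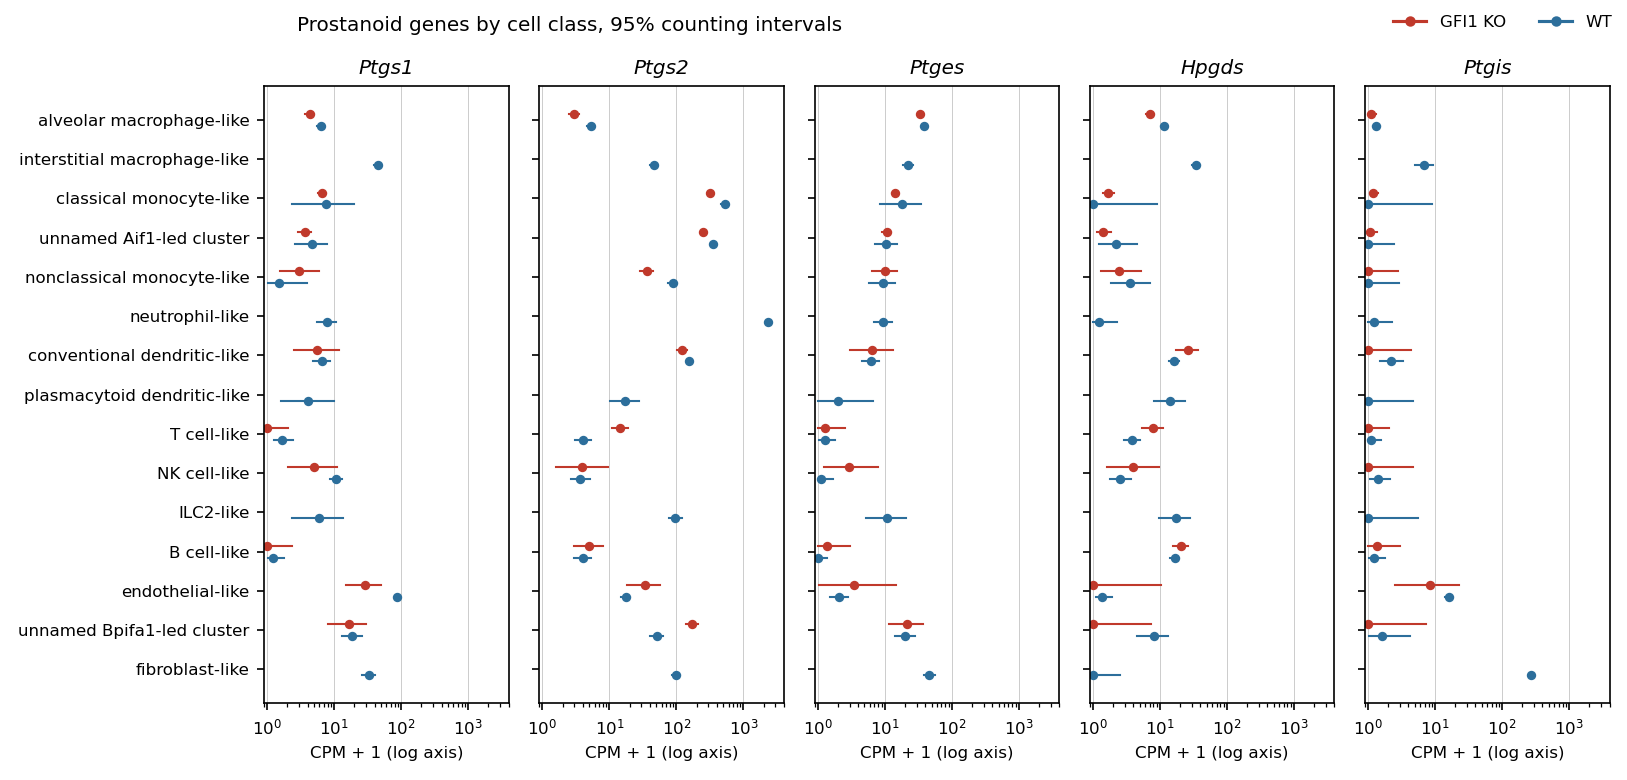
Level of the 5 prostanoid genes in each cell class (CPM + 1, log axis), 1 point per library with its exact Poisson 95% interval, red for GFI1 KO and blue for WT. Over the class and library pairs drawn, those with at least 50 cells, Ptgs2 was highest in neutrophil-like cells of the WT-labelled library (2330 CPM), Ptgs1 in its endothelial-like cells (86.6 CPM) and Ptgis in its fibroblast-like cells (271 CPM).

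**Figure D4:**
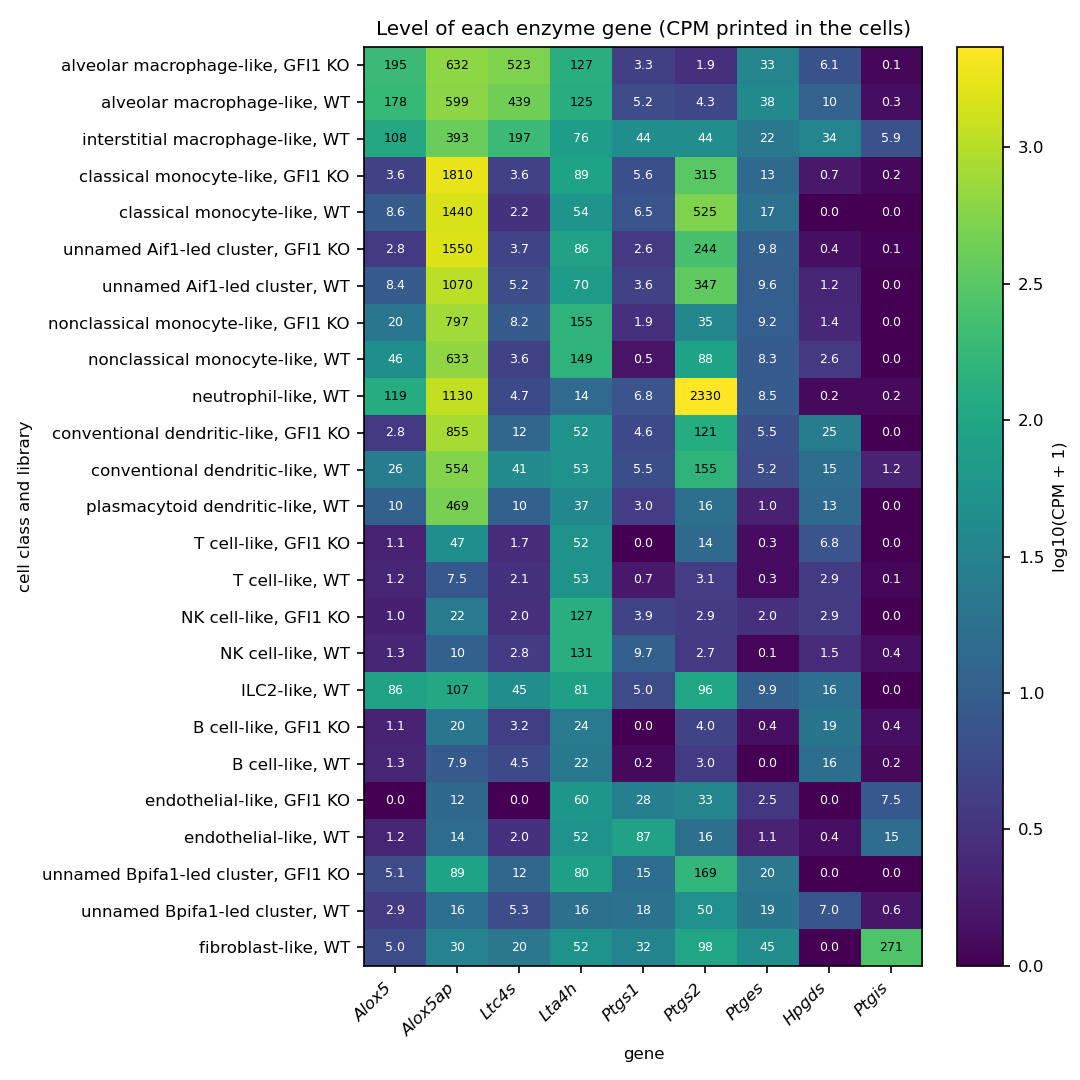
Level of all 9 genes by cell class and library, with log10(CPM + 1) as colour and the CPM printed in each cell, for the class and library pairs with at least 50 cells. Alox5 and Ltc4s were both above 100 CPM in alveolar and interstitial macrophage-like cells only, whereas Lta4h lay between 14.1 and 155 CPM everywhere.

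The libraries were next compared within each class that had at least 50 cells in both. A gene was read as past the fold when its KO over WT ratio of CPM was at least 2 or at most 0.5 and it had at least 30 UMIs over both libraries, and the same rule over all genes gives the background. Bounds on a ratio are exact binomial 95% intervals. In alveolar macrophage-like cells 8 of the 9 genes had enough UMIs and 1 was past the fold, against 4.36% of 12361 genes. This was Ptgs2, at a ratio of 0.456 (0.328 to 0.624), a difference between levels as low as those of B cell-like cells. In separate clusterings of each library its log2 ratio was 1.54 in place of -1.13, so its direction did not hold there. Of the 190 WT-labelled UMIs, 86 came from 8 cells. The cause was not tested.

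Alox5 stood at a lower level in the KO-labelled library in each monocyte class and in dendritic cells, with an interval of the ratio below 1 in all but classical monocyte-like cells. In nonclassical monocyte-like cells 2 of 5 genes were past the fold, against 3.23% of 8211 genes, and Alox5 had a ratio of 0.430 (0.290 to 0.630) from 41 and 89 UMIs. In the Aif1-led cluster 1 of 7 was past the fold, against 7.48% of 10284 genes, and this was Alox5 at 0.329 (0.190 to 0.584) from 42 and 21 UMIs. In classical monocyte-like cells 1 of 7 was past the fold, against 22.7% of 10975 genes, and Alox5 had a ratio of 0.413 whose interval (0.157 to 1.54) took in 1, since the 67 WT-labelled cells held 4 UMIs. In conventional dendritic-like cells 2 of 8 were past the fold, against 10.9% of 10537 genes. There the 112 KO-labelled cells held 3 Alox5 UMIs and the 575 WT-labelled cells 174, in 82 cells (ratio 0.108, 0.0220 to 0.321), and Ltc4s had 13 and 278 UMIs (ratio 0.293, 0.154 to 0.509). With classes assigned cell by cell the log2 ratio of Ltc4s was -0.49 in place of -1.77. For Alox5 the direction was the same in the Ccl22-led cluster (3.87 and 28.8 CPM) and in the Xcr1-led cluster (1.77 and 21.4 CPM). Both KO-labelled levels lay below what 3 UMIs would give there, 5.80 and 5.30 CPM, so they split the same 3 UMIs.

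Alveolar macrophage markers were also lower in sum in the KO-labelled library in these classes. Their sum was 221 CPM in KO-labelled and 824 CPM in WT-labelled conventional dendritic-like cells, with 8 and 9 of 9 markers detected and Marco at 0 in the former. It was 14.7 and 60.4 CPM in classical monocyte-like cells, 15.3 and 61.0 CPM in the Aif1-led cluster and 21.8 and 33.7 CPM in nonclassical monocyte-like cells. Each of these sums lay far below those of alveolar macrophage-like cells given above. Alox5 and Ltc4s are both abundant in alveolar macrophages. Ltc4s stood at 3.56 and 2.16 CPM in classical and at 8.24 and 3.63 CPM in nonclassical monocyte-like cells. In the Aif1-led cluster it stood at 3.73 and 5.18 CPM. The part of alveolar macrophage RNA in the lower levels of Alox5 and Ltc4s was not tested. The ratio of Alox5 in classical monocyte-like cells was also given without the KO-labelled cells that clustered as neutrophil-like when each library was taken alone, at a log2 value of -1.93 in place of -1.28. It was -0.96, inside the fold, with at least 1500 UMIs per cell. With cells thinned to 1500 UMIs it was -3.21, from 15 of 3104 KO-labelled and 3 of 67 WT-labelled cells with Alox5. In nonclassical monocyte-like cells it was -2.99 with the libraries clustered separately in place of -1.22. There the KO-labelled cluster named nonclassical monocyte took 1163 of its 1493 cells from the Aif1-led cluster. Neutrophil markers summed to 7610 CPM in KO-labelled and 1210 CPM in WT-labelled classical monocyte-like cells.

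In contrast, Alox5ap was not lower in any of these classes. Its ratio was 1.25 in classical monocyte-like cells, 1.45 in the Aif1-led cluster, 1.26 in nonclassical monocyte-like cells and 1.54 in conventional dendritic-like cells, each below the fold of 2. Ptgs2 had a ratio of 0.60 in classical monocyte-like cells and 0.703 in the Aif1-led cluster. In nonclassical monocyte-like cells Ptgs2 was past the fold at 0.398 (0.298 to 0.527), but 116 of the 169 WT-labelled UMIs came from 8 of 356 cells and 39 from 1 cell. With the libraries clustered separately the log2 ratio was 1.24 in place of -1.33. The cells of the class also changed in that setting. The KO-labelled cluster then named nonclassical monocyte held 1493 cells, 1163 of them from the Aif1-led cluster.

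T cell-like cells had 3 of 4 genes past the fold, all higher in the KO-labelled library, against 9.97% of 10814 genes. Alox5ap stood at 46.6 CPM (164 UMIs) in the KO-labelled and at 7.52 CPM (78 UMIs) in the WT-labelled library, a ratio of 6.20 (4.71 to 8.23). Of the 164 UMIs, 111 came from 8 of 766 cells and up to 21 from 1 cell, so the sum was carried by few cells. The difference was seen in the cluster led by Il17a and Scart1, genes of IL-17-producing γδ T cells, at 63.2 CPM (53.3 to 74.3) and 12.7 CPM (8.76 to 17.9), and in the Cd8b1-led cluster at 16.8 CPM (9.40 to 27.7) and 4.52 CPM (2.83 to 6.84). In the Cd4-led cluster the levels were 9.59 CPM (1.98 to 28.0) and 7.90 CPM (5.01 to 11.9). Ptgs2 had a ratio of 4.42 (2.77 to 7.15, 48 and 32 UMIs) and Hpgds of 2.36 (1.32 to 4.18, 24 and 30 UMIs). The 7 classical monocyte markers summed to 988 CPM in KO-labelled and 387 CPM in WT-labelled T cell-like cells, and all 7 were detected in both. When classes were assigned cell by cell, the log2 ratio of Alox5ap was 0.37 in place of 2.63 and that of Ptgs2 0.06 in place of 2.15, and with cycling cells added to the class that of Hpgds was 0.44 in place of 1.24.

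In B cell-like cells 1 of 5 genes was past the fold, against 3.07% of 10264 genes, and in NK cell-like cells 2 of 3, against 11.2% of 9903 genes. Alox5ap was again higher in the KO-labelled library, at 20.1 and 7.94 CPM in B cells (ratio 2.53, 1.76 to 3.63) and at 22.5 and 10.1 CPM in NK cells (2.24, 1.34 to 3.60). The classical monocyte markers summed to 305 and 248 CPM in B cell-like cells and to 712 and 894 CPM in NK cell-like cells, so the sum was higher in the KO-labelled library in the former and in the WT-labelled library in the latter. With the libraries clustered separately the log2 ratio of Alox5ap was 5.19 in B cells and 4.78 in NK cells in place of 1.34 and 1.16, and with classes assigned cell by cell it was 0.87 in NK cells. The level of Alox5ap over the whole library was itself 1140 against 376 CPM. Its part in these small counts was not tested. The second gene in NK cell-like cells was Ptgs1 (4 and 76 UMIs, ratio 0.405, 0.108 to 1.08), whose interval took in 1.

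In endothelial-like cells 2 of 5 genes were past the fold, against 14.6% of 10998 genes, both lower in the KO-labelled library. Ptgs1 had a ratio of 0.318 (0.158 to 0.572), and in the general capillary cluster alone the levels were 31.3 CPM (15.6 to 56.0) and 97.4 CPM (91.3 to 104). Endothelial markers summed to 15500 and 16400 CPM and platelet markers, from cells known for Ptgs1, to 22.5 and 19.8 CPM. Mural markers summed to 326 and 84.9 CPM, and the part of other cells in the ratio was not tested. Ptgis had a ratio of 0.498 from 3 and 169 UMIs, with an interval (0.102 to 1.48) that took in 1. Ptgs2 was just inside the fold at 1.98, but 12 of its 13 KO-labelled UMIs came from 1 cell.

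In the Bpifa1-led cluster with its epithelial markers 3 of 5 genes were past the fold, against 36.0% of 7278 genes. The median log2 ratio of all tested genes was 0.27. Alox5ap stood at 88.9 and 15.8 CPM (ratio 5.62, 3.47 to 9.31), Lta4h at 80.3 and 16.4 CPM (4.90, 3.01 to 8.12) and Ptgs2 at 169 and 49.8 CPM (3.40, 2.52 to 4.6). The median cell had 2233 UMIs in the KO-labelled and 7042 in the WT-labelled library, classical monocyte markers summed to 1720 and 79.0 CPM, and epithelial markers to 1610 and 2200 CPM. The classical monocyte sum was higher in the KO-labelled library, as the 3 genes were, whereas the median UMIs and the epithelial sum were lower. The part of these values in the ratios was not tested. With the libraries clustered separately the log2 ratio of Alox5ap was 0.24 in place of 2.49 and that of Ptgs2 0.01 in place of 1.77.

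**Figure D5:**
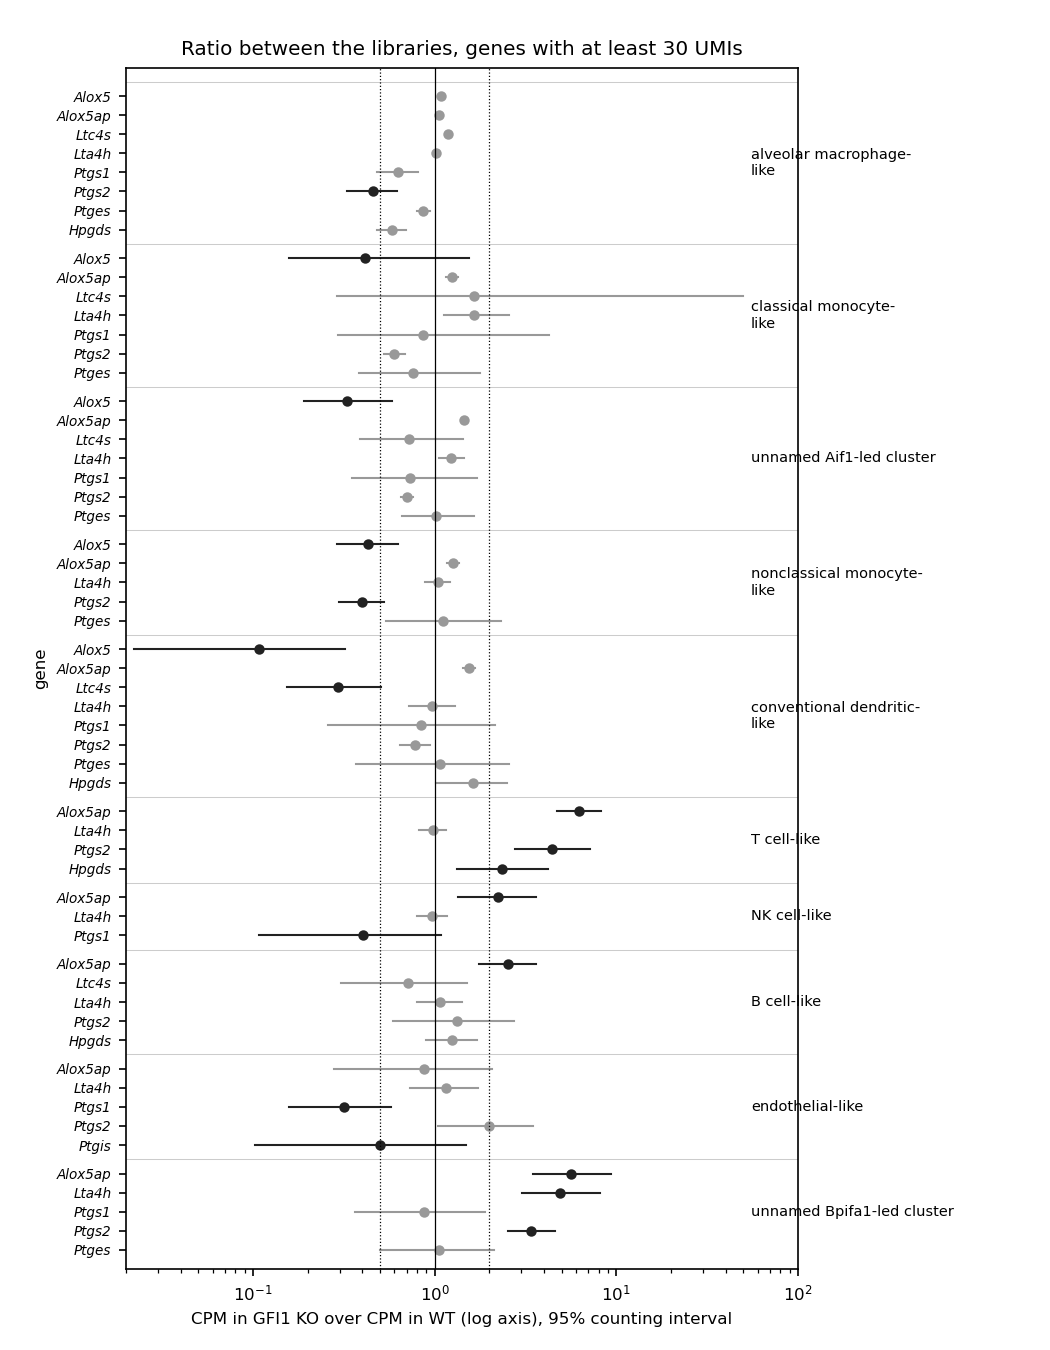
Ratio of CPM in GFI1 KO over WT for each enzyme gene with at least 30 UMIs, by cell class, with exact binomial 95% intervals on a log axis and dotted lines at 0.5 and 2. Black points are past the fold and grey points are not, and in alveolar macrophage-like cells the 4 leukotriene genes lie between 1.02 and 1.19.

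The rest of the pathway was followed with a list of 42 genes for substrate release, other synthases, other lipoxygenases, breakdown and transport, and receptors. Of these, 29 had 30 UMIs or more in at least 1 class, which gave 176 pairs of gene and class. In 25 pairs the level was past the fold and higher in the KO-labelled library, and in 21 it was lower. Breakdown and transport genes gave 11 higher and 11 lower of 68 pairs, and other prostanoid synthases 5 and 4 of 51. Leukotriene receptors gave 4 and 1 of 16, prostanoid receptors 4 and 2 of 24, substrate release 1 and 3 of 14, and other lipoxygenases none of 3. These counts pool classes with unlike shares over all genes, given next, so they show nothing particular to a group. Some rest on few UMIs, as in classical monocyte-like cells Ptger2 (214 and 1 UMIs, 0.555 to 124) and Ptges2 (421 and 2 UMIs, 0.846 to 25.5). By class, the count past the fold ran from 1 of 13 in nonclassical monocyte-like cells to 9 of 21 in classical monocyte-like cells and 7 of 13 in the Bpifa1-led cluster, where the share over all genes was 3.23%, 22.7% and 36.0%. The share over all genes was 3.07% to 14.6% in the other 7 classes.

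Hpgd, which inactivates prostaglandins, was past the fold and lower in the KO-labelled library in 8 of the 10 classes compared, counting NK cell-like cells, where 0 UMIs at the floor of 3 gave a bound of 1.99-fold. It stood at 18.9 and 97.1 CPM in classical monocyte-like cells (ratio 0.195, 0.144 to 0.270), at 67.8 and 212 CPM in the Aif1-led cluster (0.320, 0.288 to 0.356) and at 199 and 459 CPM in nonclassical monocyte-like cells (0.434, 0.385 to 0.488). In alveolar macrophage-like cells the levels were 2.86 and 11.4 CPM. B cell-like cells held 0 and 41 UMIs, at least 4.08-fold lower in the KO-labelled library when 3 UMIs are taken as the floor. Its level was highest in endothelial-like cells, at 3290 CPM (3110 to 3470) and 2950 CPM (2920 to 2980), and these cells made up 1.03% of the KO-labelled and 11.4% of the WT-labelled library. Endothelial markers in classical monocyte-like cells summed to 24.4 and 69.1 CPM, in the Aif1-led cluster to 40.0 and 84.5 CPM, in alveolar macrophage-like cells to 61.5 and 87.5 CPM and in nonclassical monocyte-like cells to 580 and 595 CPM, and the part of endothelial RNA was not tested. Slco2a1, the prostaglandin transporter, had 2 and 118 UMIs in alveolar macrophage-like cells (ratio 0.0288, 0.00345 to 0.106), and it too stood highest in endothelial-like cells, at 962 and 1210 CPM.

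Ltb4r1, the leukotriene B4 receptor, stood at 91.3 CPM (321 UMIs) in KO-labelled and 6.36 CPM (66 UMIs) in WT-labelled T cell-like cells, a ratio of 14.3 (11.0 to 19.0). Nearly all of these UMIs, 320 and 65, lay in the Il17a-led cluster, where the levels were 138 CPM (124 to 154) and 25.1 CPM (19.3 to 31.9). That cluster held 488 of 766 KO-labelled and 566 of 2405 WT-labelled T cell-like cells. In classical monocyte-like cells Ltb4r1 stood at 236 and 104 CPM (ratio 2.28, 1.72 to 3.09), and Dpep2, a dipeptidase of cysteinyl leukotriene breakdown, at 117 and 38.9 CPM (3.01, 1.90 to 5.08). Tbxas1, the thromboxane synthase, was lower there at 21.6 and 86.4 CPM (0.251, 0.182 to 0.354) and in the Aif1-led cluster at 20.6 and 53.8 CPM (0.382, 0.311 to 0.471). Ptgr1, which acts on leukotriene B4 and on prostaglandin metabolites, was higher in the Aif1-led cluster at 24.2 and 7.57 CPM (3.19, 2.01 to 5.36). The name Dpep2 was carried by 2 entries among the genes counted, and all its values here came from the first, ENSMUSG00000053687.

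Among the other genes at either end of the ratios, Cysltr1, a receptor for cysteinyl leukotrienes, had a ratio of 2.66 (1.98 to 3.56) in T cell-like cells, but within the Il17a-led cluster it stood at 38.9 and 36.2 CPM, so the ratio of the class followed the share of that cluster. In conventional dendritic-like cells Ggt5, which cleaves leukotriene C4, stood at 14.8 and 4.13 CPM (3.58, 1.81 to 6.84) and Dpep2 at 26.8 and 12.8 CPM. Ptger2, a prostaglandin E2 receptor, stood there at 3.69 and 10.8 CPM (0.343, 0.0910 to 0.916). Slco2a1 had 0 and 67 UMIs in this class, at least 3.57-fold lower. Of the 67 UMIs, 61 lay in the Xcr1-led cluster (21.4 CPM) and 6 in the Ccl22-led cluster (1.53 CPM). Doublet calls made up 7.97% of the Xcr1-led cluster, and the part of endothelial RNA in this difference was not tested. Pla2g4a, the cytosolic phospholipase that frees arachidonic acid, had 6 and 51 UMIs in B cell-like cells (0.394, 0.138 to 0.918) and 1 and 76 in endothelial-like cells (0.369, 0.00923 to 2.12). In NK cell-like cells Hpgd had 0 and 46 UMIs and Pla2g6, another phospholipase, 0 and 45, at least 1.99-fold and 1.95-fold lower at the floor of 3 UMIs, short of the fold of 2. Ptger1 had 26 and 18 UMIs in alveolar macrophage-like cells (2.45, 1.30 to 4.75). In endothelial-like cells the KO-labelled counts of Ptger1, Prxl2b and Cysltr2 were 4, 6 and 1 UMIs, and the interval of each ratio took in 1. In the Bpifa1-led cluster Dpep2 (63 and 8 UMIs) and Tbxas1 (21 and 9 UMIs) were higher and Akr1b3 (13 and 107 UMIs) and Cbr1 (21 and 142 UMIs) lower in the KO-labelled library.

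Across the 25 pairs of class and library with at least 50 cells, the genes whose log2(CPM + 1) followed each enzyme gene most closely were found by Pearson correlation. The points share 2 libraries and their depth, so the coefficients are a description. For Alox5 these were Il1rn (r = 0.903), Olr1 (0.889) and Fpr1 (0.886), and for Alox5ap Gpr35 (0.954), Cd68 (0.952) and Cd300c2 (0.951). Ltc4s was followed by Ear1 (0.956), Slc9a4 (0.955) and Trim29 (0.948), and Ptgis by Ddr2 (0.966), Nkain4 (0.953) and Fbln2 (0.938). For Ptgs2 they were Ptgs2os (0.912) and Ptgs2os2 (0.881), named as transcripts from the opposite strand at Ptgs2, and Thbs1 (0.872). How the counting treated strand is not given in the sources used here, so reads of Ptgs2 and of these genes may not be told apart. The remaining genes had Elmo2 (0.884), Vopp1 (0.810) and Glud1 (0.804) for Lta4h, Slc35f5 (0.830), Zfp704 (0.828) and Agrn (0.821) for Ptgs1, Dram1 (0.892), Dstn (0.876) and Lrp4 (0.864) for Ptges, and Ivns1abp (0.785), E330020D12Rik (0.784) and Jpt2 (0.776) for Hpgds. Among the 9 genes themselves, Alox5 and Ltc4s were the most alike (0.797).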

How the data were processed

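Lung cells of 1 library per label (GFI1 KO and GFI1 WT) were analysed from the filtered matrices of raw UMI counts that the authors deposited, with 33696 genes. The submitters' processing notes name Cell Ranger 9.0.1 and GRCm39. Antibody tag rows were not used. Cells with at least 500 UMIs, 200 genes and at most 20% mitochondrial UMIs were kept, and Scrublet calls were left in, with an alternative without them.

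Counts were scaled to 10000 per cell and log-transformed. 2000 variable genes, without the 9 enzyme genes and the 42 pathway genes, gave 50 principal components, a graph of 15 neighbours and Leiden clusters at a resolution of 0.8 (scanpy 1.11.5, leidenalg 0.10.2, Python 3.11.15, numpy 2.4.6, scipy 1.17.1, R 4.3.3 and matplotlib 3.10.9). A cluster was called X-like when at least 3 markers of a fixed list were raised and no other list led it. Clusters of cycling cells, of mixed markers or of few UMIs stayed unnamed, by limits set after the data had been seen.

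For each class, the UMIs of a gene within a library were added up and set against the total of that class without ribosomal, mitochondrial and Gm- genes (CPM). Ratios were read in classes with at least 50 cells in each library, among genes with at least 30 UMIs over both. Poisson and binomial intervals at 95% cover counting error only, and those of levels and ratios take each UMI as independent. A count of 0 was given a floor of 3 UMIs. Shares came from cells thinned to 1500 UMIs, shallower cells left out. The ratio step was run on simulated data with independent Poisson counts. This checks the calculation only, since the intervals assume such counts, and not how they hold where few cells carry the UMIs. No p-value was made, because cells are not replicates.

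The 9 genes, the lists and the marker genes were chosen with earlier results of these data known. Beside the 9 genes, the text names, per class, up to 2 pathway genes at either end of the ratios past the fold, ranked by the bound nearer to 1, and the 3 genes most correlated with each enzyme gene among those with at least 300 UMIs. Cells per UMI count in single cells, levels by cluster, endothelial levels of Hpgd and Slco2a1, and the motifs were chosen after values had been seen. Promoter sequences came from the RefSeq table (GRCm38.p6).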

Additional observations from a re-analysis of the deposited data

Results flagged for a closer look

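The Ptgs2 ratio went in opposite directions between classes under the same contrast of KO-labelled over WT-labelled cells. Its log2 ratio was 2.15 in T cell-like cells and 1.77 in the Bpifa1-led cluster, and -1.13 in alveolar macrophage-like cells and -1.33 in nonclassical monocyte-like cells. These directions did not hold under every alternative, since the log2 ratio reached 1.54 in alveolar macrophage-like and 1.24 in nonclassical monocyte-like cells with the libraries clustered separately, and was 0.06 in T cell-like cells with classes from single cells and 0.01 in the Bpifa1-led cluster with the libraries clustered separately. In separate clustering 1163 of the 1493 cells in the KO-labelled cluster named nonclassical monocyte came from the Aif1-led cluster. The difference between classes was not tested, since each label had 1 library. In T cell-like cells 27 of the 48 KO-labelled UMIs came from 8 cells, and in nonclassical monocyte-like cells 116 of the 169 WT-labelled UMIs came from 8 cells. In alveolar macrophage-like cells 86 of the 190 WT-labelled UMIs came from 8 cells.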

How the results depend on the processing

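No paired analysis was possible because each label had 1 library and no value comes from a test, and for the same reason no library could be left out. Of the 57 ratios read, 18 were past the fold, against 3.07% to 36.0% of all genes by class. Some of these 18 stayed past it on the same side under every alternative that gave a value. These were Alox5ap in B cell-like cells, Alox5 in conventional dendritic-like and nonclassical monocyte-like cells, Ptgs1 in endothelial-like cells and Lta4h in the Bpifa1-led cluster. Alox5 in the Aif1-led cluster did so too, but with cells thinned to 1500 UMIs its ratio rested on few cells. After thinning, 6 of 1693 KO-labelled and 3 of 352 WT-labelled cells of that cluster held Alox5. It is not in the count past the fold given below for that setting. In the Bpifa1-led cluster 12 of 95 KO-labelled and 2 of 85 WT-labelled thinned cells held Lta4h. The log2 ratio of Alox5 in classical monocyte-like cells ran from -3.21 to -0.96 over its alternatives. The Ptgs2 log2 ratio reversed in alveolar macrophage-like cells to 1.54 with the libraries clustered separately, 1.16 at a resolution of 0.5 and 0.03 with at least 1500 UMIs per cell, and in nonclassical monocyte-like cells to 1.24 with the libraries clustered separately and 0.10 with classes from single cells. With separate clustering, the KO-labelled cluster named nonclassical monocyte held 1493 cells, 1163 of them from the Aif1-led cluster. Ptgs1 in NK cell-like cells reversed to 0.12 with cells thinned to 1500 UMIs, where 3 of 210 KO-labelled and 26 of 1982 WT-labelled cells held it. The cause was not tested.

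The number of enzyme genes past the fold moved by over 1.5 times as follows. The share over all genes is not set beside these counts, and a lower minimum or fold can only add genes. The counts therefore describe the settings and show nothing particular to the enzyme genes. At a minimum of 1 UMI, where more genes enter, it was 3 in B, 4 in NK, 5 in T, 2 in alveolar macrophage-like, 3 in classical monocyte-like, 6 in endothelial-like and 4 in nonclassical monocyte-like cells, 3 in the Aif1-led and 6 in the Bpifa1-led cluster. At a minimum of 10 UMIs it was 2 in alveolar macrophage-like, 2 in classical monocyte-like and 5 in endothelial-like cells and 5 in the Bpifa1-led cluster. At a fold of 1.5 it was 3 in alveolar macrophage-like, 4 in classical monocyte-like and 4 in conventional dendritic-like cells. With the libraries clustered separately it was 2 in B, 4 in nonclassical monocyte-like cells and 1 in the Bpifa1-led cluster. It was 1 in nonclassical monocyte-like cells at a resolution of 0.5 and 2 in alveolar macrophage-like cells at 1.2. Without Scrublet doublets it was 1 in conventional dendritic-like and 1 in endothelial-like cells, and without barcodes found in both libraries 1 in endothelial-like cells. With at least 1500 UMIs per cell it was 0 in alveolar macrophage-like, 2 in classical monocyte-like and 1 in nonclassical monocyte-like cells. With the mean of each cell's CPM it was 1 in NK, 0 in alveolar macrophage-like, 4 in conventional dendritic-like and 1 in nonclassical monocyte-like cells. With cells thinned to 1500 UMIs it was 1 in NK, 1 in T, 0 in alveolar macrophage-like and 1 in conventional dendritic-like cells and 0 in the Aif1-led cluster. With classes from single cells it was 1 in NK, 2 in classical monocyte-like, 1 in conventional dendritic-like, 5 in endothelial-like and 1 in nonclassical monocyte-like cells.

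Classical monocyte-like and endothelial-like cells could not be compared with the libraries clustered separately (2371 and 0, and 0 and 2114 cells), nor the Aif1-led cluster at a resolution of 0.5, nor the Bpifa1-led cluster there, without Scrublet doublets or with at least 1500 UMIs per cell, nor either unnamed cluster with classes from single cells. The alternatives on shared barcodes, the cycling cluster and neutrophil-like cells were chosen after seeing the data.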

Other observations

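Basophil-like cells, 19 in the KO-labelled and 15 in the WT-labelled library and so below the 50 cells needed for a comparison, were looked at after the other values had been seen, since basophils are known as a source of leukotrienes. Alox5 stood at 238 CPM (22 UMIs) and 295 CPM (21 UMIs), Alox5ap at 1940 CPM (179 UMIs) and 1220 CPM (87 UMIs), and Ptgs2 at 1960 CPM (181 UMIs) and 3330 CPM (237 UMIs). Ltc4s and Lta4h had 1 UMI each in either library. In the cluster of cycling cells, which holds several types, Alox5 stood at 94.6 and 95.5 CPM. The 27 interstitial macrophage-like cells of the KO-labelled library held 40 UMIs of Hpgds, 144 CPM (103 to 196), in 14 cells, against 33.8 CPM (29.1 to 39.2) in the WT-labelled library.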
